A study of Mus musculus with 15 samples.

Results

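Transcripts of 10 genes that ERK signaling induces or that restrain it were measured by bulk RNA-seq in 4T1 cells, a mouse triple-negative mammary carcinoma line. They were taken by symbol from a count table of 40402 genes and comprise Dusp4, Dusp5, Dusp6, Spry2, Spry4, Spred1, Spred2, Etv4, Etv5 and Phlda1. All 10 were among the 17647 genes with at least 1 CPM (counts scaled to a common library total) in at least 1 library. The 5 conditions were untreated cells and cells given blackberry extract (BLA), blueberry extract (BLU), or gold nanoparticles made with the blackberry (BLA-A) or blueberry (BLU-A) extract, added 24 hours after seeding. All carried the wild-type label and none received nanoparticles without a berry extract. The dose and the hour of harvest are not in the labels.

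Each condition was labelled as 3 replicates, and the study's methods describe replicates as independent. Its supplement lists 1 raw read total for each condition and 3 equal subsets of reads under it. Within a condition the 3 columns were closer than sampling noise, with a chi-square per degree of freedom between 0.0951 and 0.475, and their mean was used as 1 library. The 5 libraries held between 25613778 and 26956442 counts. A comparison of 1 treatment with untreated cells therefore sets 1 library against 1 and has no replicate check. Each sample carries its own batch date, so batch and treatment cannot be told apart. The intervals below cover counting error only. The 6 epithelial markers summed to 1283 CPM in untreated cells, 957 with BLA, 993 with BLU, 1724 with BLA-A and 1122 with BLU-A. In BLA-A 5 of them were higher than in untreated cells and 1 lower, Epcam at 39.8 against 69.0 CPM. Leukocyte markers summed to between 7.79 and 9.33 CPM and endothelial markers to between 1.77 and 4.07 CPM. The 3 fibroblast markers summed to between 86.5 and 102 CPM, nearly all from Pdgfra, and Lum was at 0 counts in each library. In bulk RNA, fewer cells of a type and less RNA per cell cannot be told apart.

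ERK is the last kinase of the RAS-RAF-MEK-ERK cascade, which carries growth factor signals from receptor tyrosine kinases to the nucleus. Active ERK induces genes whose products switch the cascade off again. Dual-specificity phosphatases (DUSPs) remove phosphate from ERK and related kinases, Sprouty and Spred proteins act upstream of ERK at the level of receptors, RAS and RAF, and ETV4 and ETV5 are ETS transcription factors that carry ERK output to further genes. These transcripts are commonly read together as a measure of ERK pathway output in tumor cells.

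The sequence just upstream of a gene's start holds part of what controls its transcription, and is shown here for the ERK phosphatase gene that was below its untreated level in each treated library (Dusp6) and for a pair of genes that were higher in BLA-A (Dusp5 and Spry2). RefSeq promoters on GRCm38.p6 were used for 6 of the 10 genes, Dusp5, Dusp6, Spry2, Spred1, Spred2 and Etv5. Their starts are those of RefSeq and can differ from the starts of the GENCODE gene positions given below. The 250 bases before the start are given 5′ to 3′ on the gene's strand, at chr19:53528895-53529144 (plus strand) for Dusp5, chr14:105896820-105897069 (minus strand) for Spry2 and chr10:99262981-99263230 (plus strand) for Dusp6. Capitals mark matches to the motifs searched.
Dusp5: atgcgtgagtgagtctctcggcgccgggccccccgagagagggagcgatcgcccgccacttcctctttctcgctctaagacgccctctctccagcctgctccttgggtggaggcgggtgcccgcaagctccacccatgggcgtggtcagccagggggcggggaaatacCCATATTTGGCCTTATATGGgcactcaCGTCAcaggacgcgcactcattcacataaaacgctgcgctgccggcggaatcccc
Spry2: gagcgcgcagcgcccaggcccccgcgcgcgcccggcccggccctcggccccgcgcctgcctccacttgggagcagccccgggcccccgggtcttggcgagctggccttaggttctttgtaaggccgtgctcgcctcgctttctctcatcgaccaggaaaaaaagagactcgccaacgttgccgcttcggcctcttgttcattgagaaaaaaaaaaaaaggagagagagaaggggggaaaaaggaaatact
Dusp6: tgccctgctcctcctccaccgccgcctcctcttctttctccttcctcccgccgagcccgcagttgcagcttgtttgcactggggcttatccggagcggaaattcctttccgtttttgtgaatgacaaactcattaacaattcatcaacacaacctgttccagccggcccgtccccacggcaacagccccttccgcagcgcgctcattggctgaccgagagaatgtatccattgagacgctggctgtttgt
The motifs were the ETS site CCGGAA, the AP-1 site TGANTCA and the cyclic AMP response element (CRE) TGACGTCA with its half-site TGACG. The CArG box bound by serum response factor was added. All were searched on both strands, and a full CRE also counts as its half-site. Dusp5 held 2 adjoining CArG boxes, at 82 to 73 and 72 to 63 bases before the start, followed by a CRE half-site on the other strand at 55 to 51 bases. Of 32851 promoters of this length, 1.47% held a CArG box and 17.8% a CRE half-site. Spred2 held a CRE half-site 51 to 47 bases before its start. None of these motifs occurred in the windows of Spry2, Dusp6, Spred1 or Etv5 (the last with 2 listed starts). The shorter ETS core GGAA was not searched by itself. The other motifs were present in 12.0% (ETS site CCGGAA), 6.75% (AP-1) and 1.55% (full CRE) of promoters.

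Dusp6 was the phosphatase with lower values in each treated library, while Dusp5 was higher in BLA-A alone. Levels below are CPM after normalization by the trimmed mean of M-values (TMM), which scales libraries to the bulk of their genes. Dusp6, a cytoplasmic phosphatase with a strong preference for ERK, is on chromosome 10 of GRCm39 from 99086564 to 99103361. It was at 172 CPM in untreated cells, 132 with BLA, 152 with BLU, 150.2 with BLA-A and 154 with BLU-A. The untreated library was the highest of the 5, with a counting interval (167 to 177 CPM) above those of the treated ones. The level was 23.0% lower with BLA, 11.2% lower with BLU, 12.5% lower with BLA-A and 10.1% lower with BLU-A. These 4 differences share the untreated library and are not independent of each other. Dusp6 overlaps an antisense lncRNA gene, Gm34921, at 14.1 to 33.9 CPM (here without TMM), and the authors counted reads by strand. A lncRNA gene on the same strand, Gm56968, also overlaps Dusp6 and is not in the count table.

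Dusp5, a nuclear phosphatase selective for ERK, is on chromosome 19 of GRCm39 from 53517532 to 53530862. It was at 96.0 CPM in untreated cells, 87.3 with BLA, 82.7 with BLU, 136 with BLA-A and 86.7 with BLU-A. BLA-A stood above the other 4 libraries, and BLA, BLU and BLU-A lay below the untreated one. Against untreated cells the ratio was 1.41 in BLA-A (95% counting interval 1.34 to 1.49) and 0.862 in BLU (0.814 to 0.912). Dusp4, a nuclear phosphatase that acts on ERK and on the stress kinases JNK and p38, was at 253 CPM in untreated cells, 301 with BLA, 267 with BLU, 288 with BLA-A and 249.9 with BLU-A. It had the narrowest range of the 10 genes, with a ratio of 1.20 between the highest and lowest library. Its log2 fold change of 0.18 in BLA-A became -0.01 when libraries were scaled by total counts alone.

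**Figure D1:**
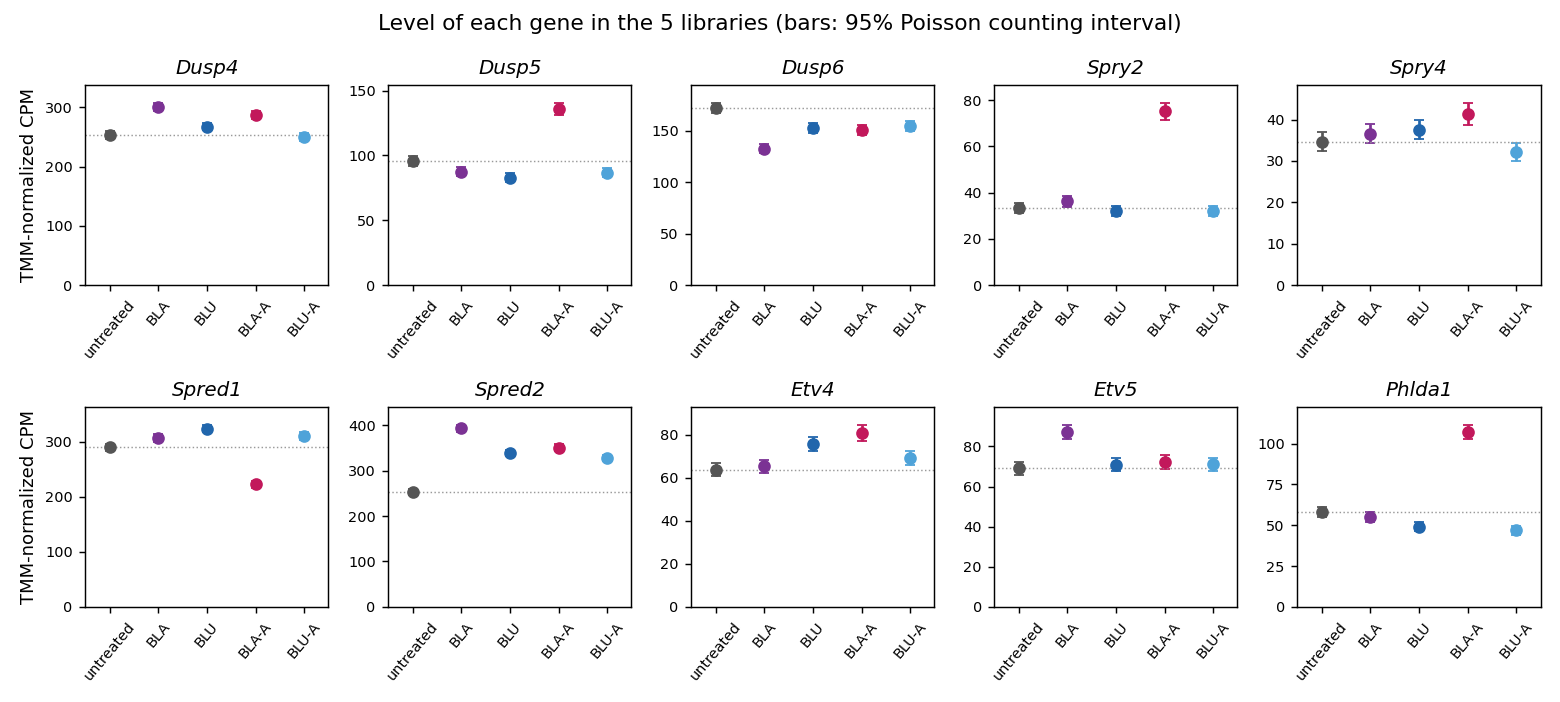
TMM-normalized CPM (vertical axes, from 0) of the 10 genes in each of the 5 libraries, with 95% Poisson counting intervals as bars and the untreated level as a dotted line. Spry2 at 75.1 CPM and Phlda1 at 107 CPM in BLA-A stand far above their other libraries, Spred1 is lowest in BLA-A, Dusp6 is highest in untreated cells and Spred2 lowest there.

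Among the upstream inhibitors, Spry2 stood at 2.25 times the untreated level in BLA-A and near that level elsewhere, and Spred2 was above the untreated level in each treated library. Spry2, an inhibitor of receptor tyrosine kinase signaling, is on chromosome 14 of GRCm39 from 106128766 to 106136446. It was at 33.5 CPM in untreated cells, 36.2 with BLA, 32.1 with BLU, 75.1 with BLA-A and 32.1 with BLU-A. BLA-A was the only library outside the range of 32.1 to 36.2 CPM. The ratio of BLA-A to untreated cells was 2.25 (counting interval 2.07 to 2.44), and in BLA, BLU and BLU-A the interval of the ratio included 1. Spry4, its relative, was at 34.7 CPM in untreated cells, 36.6 with BLA, 37.4 with BLU, 41.3 with BLA-A and 32.2 with BLU-A. Its interval excluded equality with untreated cells in BLA-A only, at 1.19-fold.

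Spred1 and Spred2 bring neurofibromin, the RAS inactivator encoded by Nf1, to the membrane. Spred2, on chromosome 11 of GRCm39 from 19874355 to 19974442, was at 253 CPM in untreated cells, 394 with BLA, 339 with BLU, 351 with BLA-A and 329 with BLU-A. The untreated library was the lowest, and the ratios to it were 1.55 with BLA (1.51 to 1.60), 1.34 with BLU (1.30 to 1.38), 1.39 with BLA-A (1.34 to 1.43) and 1.30 with BLU-A (1.26 to 1.34). Spred1, on chromosome 2 from 116951524 to 117018277, was at 289.5 CPM in untreated cells, 307 with BLA, 324 with BLU, 223 with BLA-A and 310.3 with BLU-A. BLA-A was the lowest library for Spred1, 23.1% below untreated cells, whereas the other treated libraries were 5.97% to 11.8% above. The pair thus lay on opposite sides of the untreated level in BLA-A, at 0.47 for Spred2 and -0.38 for Spred1 on the log2 scale.

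The ETV factors varied little. Etv4 was at 63.7 CPM in untreated cells, 65.4 with BLA, 75.9 with BLU, 80.9 with BLA-A and 69.3 with BLU-A, highest with blackberry nanoparticles at 1.27-fold. Etv5 was at 69.0 CPM in untreated cells, 87.2 with BLA, 70.9 with BLU, 72.0 with BLA-A and 71.1 with BLU-A, so that BLA alone stood apart, at 1.26-fold. Its value of 0.06 (log2) in BLA-A turned to -0.13 under total-count scaling, and that of 0.04 in BLU to -0.01 under the DESeq2 size factors.

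Phlda1 encodes a pleckstrin homology-like protein and is among the transcripts used to read MEK and ERK output. It lies on chromosome 10 of GRCm39 from 111342147 to 111344506 and was at 58.0 CPM in untreated cells, 55.0 with BLA, 49.0 with BLU, 107 with BLA-A and 46.8 with BLU-A. The 2 nanoparticle libraries were the highest and the lowest. Against untreated cells the ratio was 1.85 in BLA-A (1.73 to 1.97) and 0.807 in BLU-A (0.749 to 0.871), on opposite sides of 1.

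The question across treatments was whether the group as a whole moved away from the untreated level. A log2 fold change, here on CPM plus 0.5, was counted as past the fold when over 1 in size. No member passed it in BLA, BLU or BLU-A, where 16.5%, 10.3% and 7.85% of all genes did. Spry2 was the only member past it in BLA-A, at 1.16, where 20.9% of all genes passed in either direction and 8.54% upward. With total-count scaling Spry2 was at 0.96, and no member passed. The median log2 fold change of the 10 genes was 0.08 with BLA, 0.06 with BLU, 0.29 with BLA-A and -0.04 with BLU-A. Over all genes tested it was -0.01, -0.01, -0.01 and 0.00, and over the 9771 genes with a mean of at least 10 CPM it was -0.01, -0.01, 0.10 and 0.01. In BLA-A 8 members were higher and 2 lower than in untreated cells, and 6 were higher with total-count scaling, under which the median of all genes in BLA-A fell by 0.17. The median size of the members' differences, regardless of sign, was 0.12 with BLA, 0.17 with BLU, 0.36 with BLA-A and 0.11 with BLU-A, against 0.41, 0.33, 0.49 and 0.24 over all genes and 0.32, 0.24, 0.41 and 0.16 over genes with a mean of at least 10 CPM.

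For some of these genes, most of all Spry2 and Phlda1, much of the spread over the conditions came from the BLA-A library. The ratio of highest to lowest library ran from 1.20 (Dusp4) to 2.34 (Spry2), with a median of 1.38. Leaving out BLA-A, it ran from 1.12 (Spred1) to 1.55 (Spred2), with a median of 1.20. For Spry2 it went from 2.34 to 1.13 and for Phlda1 from 2.29 to 1.24. It stayed at 1.55 for Spred2, 1.30 for Dusp6, 1.26 for Etv5 and 1.20 for Dusp4. Leaving out a library can only narrow this ratio or keep it, and no other library was left out in this way.

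Each nanoparticle library was set against the library of its own extract. No library had nanoparticles without a berry extract, and doses are not in the labels. The part of the gold therefore cannot be told apart from other differences between the preparations. Between blackberry nanoparticles and blackberry extract, Spry2 was 2.07-fold higher (counting interval 1.92 to 2.25), Phlda1 1.95-fold higher (1.83 to 2.08) and Dusp5 1.55-fold higher (1.47 to 1.64). Spred1 was lower, at a ratio of 0.726 (0.701 to 0.752). Only Spry2 passed a log2 fold change of 1, at 1.04, where 11.6% of all genes passed upward. It was at 0.88 with total-count scaling, and with DESeq2 size factors Phlda1 passed too, at 1.04. Between blueberry nanoparticles and blueberry extract, 6.79% of all genes passed the fold in either direction and no member did. The largest of these differences was that of Spry4, at a ratio of 0.859 (0.784 to 0.942). For Spry2 the blueberry pair was at 32.1 CPM in each library.

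**Figure D2:**
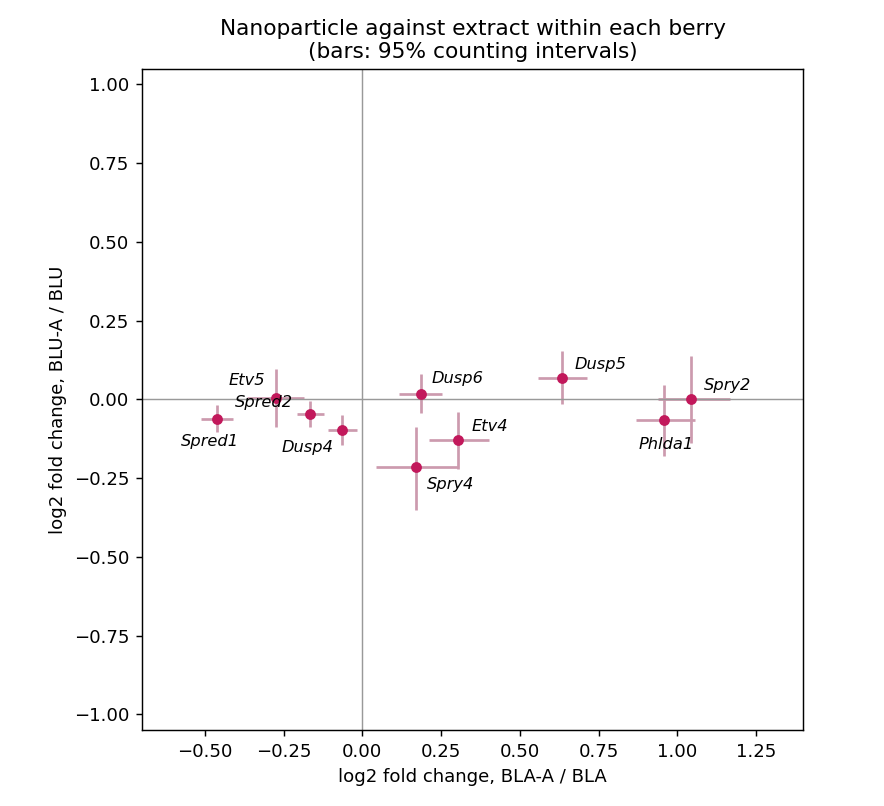
Log2 fold change of blackberry nanoparticles over blackberry extract (horizontal) and of blueberry nanoparticles over blueberry extract (vertical) for the 10 genes, with 95% counting intervals as bars. The points spread from -0.46 (Spred1) to 1.04 (Spry2) along the blackberry axis and from -0.22 (Spry4) to 0.07 (Dusp5) along the blueberry axis.

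The 2 nanoparticle libraries were also compared with each other. In BLA-A, Spry2 was 2.34-fold (2.15 to 2.54) and Phlda1 2.29-fold (2.14 to 2.45) the level in BLU-A, and both passed a log2 fold change of 1, as 8.68% of all genes did upward. The plain extracts were closer, with no member past the fold between BLA and BLU, where 10.6% of all genes passed in either direction. The largest difference between the extracts was in Etv5, 1.23-fold higher in BLA (1.16 to 1.31). These comparisons use the BLA-A library again and do not add an independent measurement of it.

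Tests across libraries called none of the 10 genes. With the 4 treated libraries against the untreated one, edgeR's quasi-likelihood test called 0.0227% of genes (4 of 17647) at a Benjamini-Hochberg adjusted p under 0.05, and no member. The largest difference among members was that of Spred2, at 0.48 on the log2 scale (standard error 0.24, 95% interval -0.07 to 1.03, adjusted p = 0.999, edgeR). Dusp6 was at -0.22 (standard error 0.23, interval -0.75 to 0.31, adjusted p = 0.999, edgeR). At an unadjusted p under 0.05 the test found 481 genes and 0 members, and DESeq2's Wald test called 17 genes and 0 members. In this test the spread comes from the different treatments, and the untreated condition, with 1 library, is assumed to vary like them.

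Nanoparticles against extracts, at 2 libraries each, gave 0% of genes called by edgeR, with 1108 genes and 0 members at an unadjusted p under 0.05, and 34 genes and 0 members called by DESeq2. The largest member differences were those of Spry2, at 0.73 (standard error 0.43, interval -0.29 to 1.74, adjusted p = 0.686, edgeR), and Phlda1, at 0.64 (standard error 0.41, interval -0.33 to 1.62, adjusted p = 0.695, edgeR). No member had both nanoparticle libraries above or below both extract libraries, while 18% and 23.2% of all genes did. Blackberry against blueberry likewise gave 0% of genes called by edgeR, with 631 genes and 0 members at an unadjusted p under 0.05, and 13 genes and 0 members by DESeq2. Spry2 was higher with blackberry by 0.86 (standard error 0.41, interval -0.11 to 1.84, adjusted p = 0.914, edgeR) and Phlda1 by 0.83 (standard error 0.38, interval -0.07 to 1.73, adjusted p = 0.914, edgeR).

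By level alone, 6 members (Dusp4, Dusp5, Spry2, Spred2, Etv5 and Phlda1) were higher in both blackberry libraries than in both blueberry libraries, as were 13.2% of all genes, and 2 (Dusp6 and Spred1) were lower in both, as were 19.9%. This count depended on the scaling, since with total counts alone only Spry2 and Phlda1 were higher in both and the same 2 members lower. Those shares of all genes were then 9.59% and 24.7%. With DESeq2 size factors the same 6 members were higher in both and only Spred1 lower, beside 15.6% and 17.8% of all genes.

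Other genes of the pathway were counted as whole lists. These lists, like the members, were chosen with earlier results of these data known, so their counts and medians are descriptive. Of the 15 genes of the RAS-RAF-MEK-ERK cascade, all were kept. In BLA-A 2 passed the fold upward, where 8.54% of all genes did, Mapk3 (the kinase ERK1) at 1.14 and Hras (a RAS GTPase) at 1.07. In BLA 1 passed upward, Ksr1 (a scaffold of RAF and MEK) at 1.03, where 16.5% of all genes passed in either direction. No cascade gene passed in BLU or BLU-A, where 10.3% and 7.85% of all genes did, and none passed downward. The cascade's median log2 fold change was 0.00 with BLA, 0.15 with BLU, 0.26 with BLA-A and 0.04 with BLU-A. With total-count scaling no cascade gene passed the fold upward in BLA-A. Nf1, the partner of the Spred proteins, was at 215 CPM in untreated cells, 338 with BLA, 324 with BLU, 294 with BLA-A and 291 with BLU-A. It was lowest in untreated cells, as Spred2 was, and so were Araf, Braf, Ksr1 and Rasa2 of the same list.

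Of 14 relatives of the members, 13 were kept and Spry3 was not. In BLA-A 6 of the 13 passed upward, where 8.54% of all genes did, and none downward, with a median of 0.98. The 3 largest were Phlda3, a pleckstrin homology-like protein that restrains AKT, at 2.50, Dusp1, an immediate early phosphatase of JNK and p38, at 2.04, and Phlda2, an imprinted gene, at 1.99. Dusp1 was at 35.4 CPM in untreated cells, 39.4 with BLA, 25.3 with BLU, 147 with BLA-A and 26.5 with BLU-A, and so stood apart in the same library as Spry2 and Phlda1. In BLA, where 16.5% of all genes passed in either direction, 1 relative passed downward, Dusp2 at -1.71, from 2.22 to 0.33 CPM. No relative passed in BLU or BLU-A, where 10.3% and 7.85% of all genes did. The medians of the relatives were 0.15 for BLA, -0.37 for BLU and 0.03 for BLU-A. The share of genes past the fold upward in BLA-A differed with gene span. Among genes with a mean of at least 10 CPM it was 20.9% up to 5 kb and 2.63% over 100 kb. The lists of pathway genes were not set beside genes of like span.

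Of 10 other output genes, all kept, 4 passed upward in BLA-A, where 8.54% of all genes did. None passed downward there, and none passed in BLA, BLU or BLU-A, where 16.5%, 10.3% and 7.85% of all genes passed in either direction. Ier3, an immediate early survival gene, was at 2.68, Lif, a cytokine of the interleukin 6 family, at 1.80 and Epha2, an ephrin receptor, at 1.29. Ier3 was at 125 CPM in untreated cells, 94.1 with BLA, 64.2 with BLU, 806 with BLA-A and 108 with BLU-A. Ccnd1, the G1 cyclin D1, was at 1181 CPM in untreated cells, 705 with BLA, 899.7 with BLU, 1147 with BLA-A and 1020.5 with BLU-A. The median of the 10 other output genes was 0.61 with BLA-A, against -0.14 for BLA, -0.24 for BLU and -0.14 for BLU-A. With total-count scaling 5 relatives and 3 output genes passed the fold upward in BLA-A, and with DESeq2 size factors 8 and 4. The ERK target genes were thus uneven in BLA-A, with Dusp6 at -0.19 and Ccnd1 at -0.04 beside Spry2 at 1.16 and Ier3 at 2.68.

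**Figure D3:**
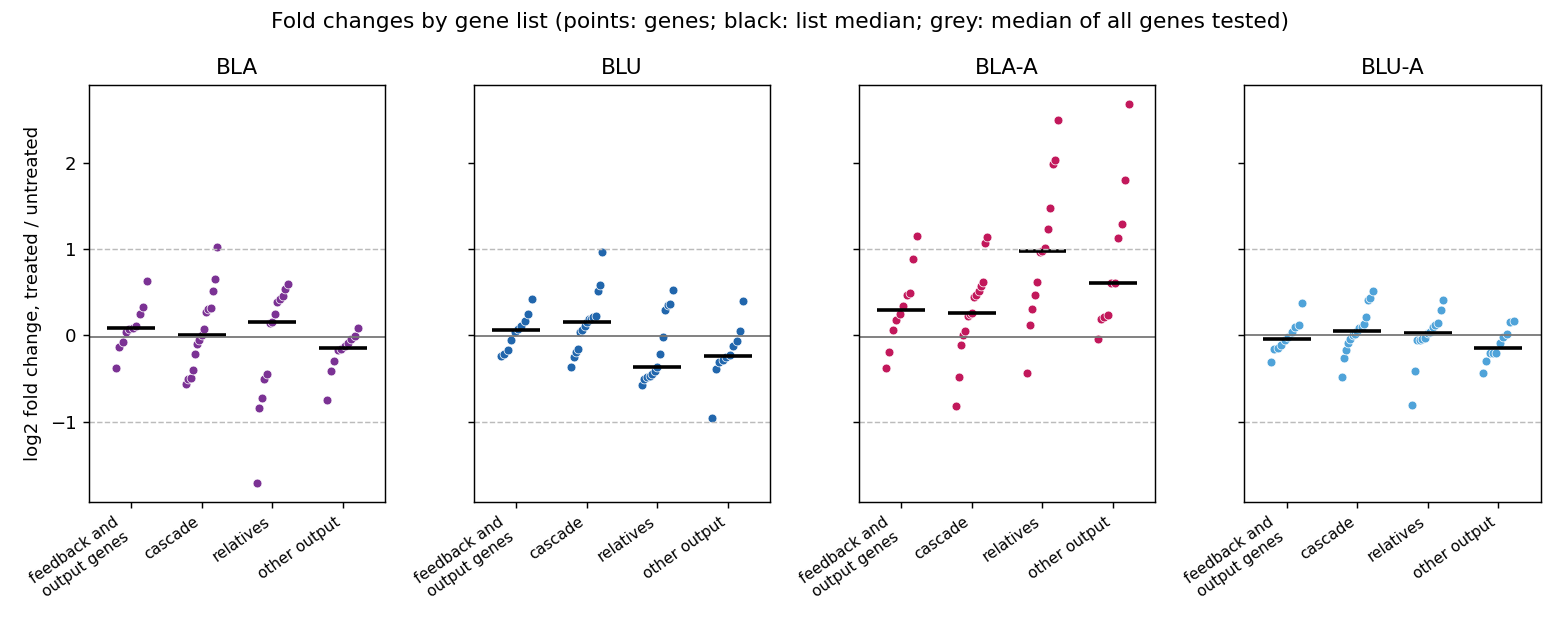
Log2 fold change against untreated cells (vertical axis) of the 10 genes and of the cascade (15), relatives (13) and other output (10) genes, 1 panel per treatment. Points are genes, black bars list medians, the grey line the median of all genes tested, and dashed lines the fold of 1. Medians reach 0.98 for relatives and 0.61 for other output genes in BLA-A, against 0.29 for the 10 genes. All lists were chosen with earlier results of these data known.

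Gene length moved with the fold changes of all genes. The authors counted reads over whole genes, introns included, so unspliced RNA of long genes enters the counts. Genes were classed by the span of their gene on GRCm39 (GENCODE release M39), which matched 92.6% of genes. The authors counted on RefSeq genes, whose spans were not used here and can differ. Class medians are given for genes with a mean of at least 10 CPM. In BLA the median log2 fold change went from -0.41 for genes up to 5 kb to 0.44 for genes over 100 kb, in BLU from -0.34 to 0.40 and in BLU-A from -0.10 to 0.23. In BLA-A the shortest class had the highest median, 0.25, and the longest was at 0.16, or at -0.21 over all genes of that span without the minimum of 10 CPM.

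Spred2, whose gene spans 100.1 kb with 6.09% in exons, fell in the longest class. Its log2 fold changes of 0.63 with BLA, 0.42 with BLU, 0.47 with BLA-A and 0.37 with BLU-A stood beside class medians of 0.44, 0.40, 0.16 and 0.23, and between 23.2% and 48.2% of the class was higher. The gene passes the 100 kb limit of its class only narrowly, and the medians of the class from 50 to 100 kb were lower, at 0.15 for BLA, 0.13 for BLU, 0.07 for BLA-A and 0.06 for BLU-A. Spry2, spanning 7.68 kb, was at 1.16 in BLA-A beside a median of 0.13, with 7.71% of its class of 2750 genes higher. Phlda1, spanning 2.36 kb, was at 0.88 beside 0.25, with 25.0% of its class of 579 higher. Dusp6, spanning 16.8 kb, was at -0.38 in BLA beside -0.24 and at -0.17 in BLU beside -0.19. In BLA-A and BLU-A Dusp6 was at -0.19 and -0.15, beside medians of 0.13 and -0.08. Spred1, spanning 66.8 kb, was at -0.38 in BLA-A beside 0.07, with 17.4% of its class lower. With a shorter RefSeq span, Spry2 or Dusp6 could fall in the class up to 5 kb. Its medians were -0.41 for BLA, -0.34 for BLU, 0.25 for BLA-A and -0.10 for BLU-A. In BLA-A 20.9% of that class was over 1. The part of gene span in the differences of the members was not tested.

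**Figure D4:**
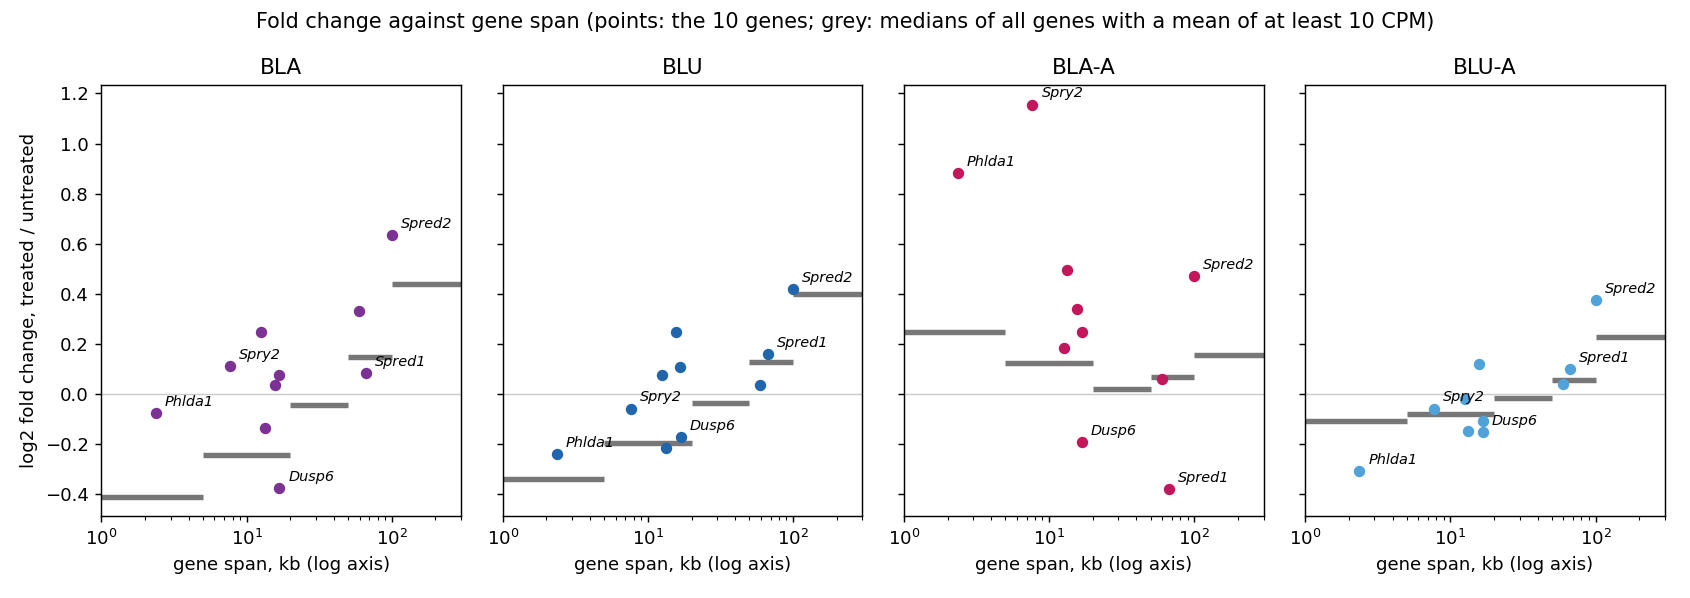
Log2 fold change against untreated cells (vertical axis) by gene span in kb (log axis), 1 panel per treatment. Colored points are the 10 genes and grey bars the medians of genes with a mean of at least 10 CPM in 5 span classes, the outer classes being open. Spred2 at 100.1 kb, just over a class limit, is at 0.42 in BLU beside 0.40 for its class and 0.13 for the class below, and Spry2 at 7.68 kb lies above its class in BLA-A (1.16 beside 0.13).

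Likeness of profile was taken as the root sum of squared differences between log2 profiles over the 5 libraries, each centered on its own mean. The closest pair among the members was Dusp4 and Etv5, at 0.17, followed by Spry4 and Dusp4, at 0.19. Spry2 and Phlda1 were each other's nearest member, at 0.21. Of 9761 other genes at or above 10 CPM, 146 were at least as near to Dusp4 as Etv5 was. For Spry4, 188 were at least as near as Dusp4 was, and for Spry2, 64 were at least as near as Phlda1 was. Other members lay far from the rest. For Dusp5, 1555 genes were at least as near as its nearest member, for Dusp6 2085 and for Spred1 2628. Mtmr6, Wdr5, Odc1 and Mak16 were among the genes nearest to Dusp6, at distances of 0.07 to 0.08. Odc1, the first enzyme of polyamine synthesis, was at 612 CPM in untreated cells, 459 with BLA, 515 with BLU, 541 with BLA-A and 537 with BLU-A, like Dusp6 highest in untreated cells and lowest in BLA. Of the 10 members 9 overlap another annotated gene, 7 of them one on the opposite strand, and Dusp4 overlaps none.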

How the data were processed

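The authors removed ribosomal RNA, aligned reads to GRCm39 with STAR and counted them by strand on whole genes in OmicsBox. They deposited whole-number counts per gene, without normalization, in 15 columns, 3 per condition. Per the labels, DESeq2 1.36.0 was used upstream. Deposited tables of the authors' own fold changes, p-values and enrichment scores were not used.

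The 3 columns of a condition were averaged and rounded. The filter required 1 CPM in any of the 5 libraries. Folds used TMM in edgeR 4.0.16 with 0.5 CPM added, and exact conditional 95% counting intervals. The edgeR quasi-likelihood test ran on all 17647 genes with Benjamini-Hochberg adjustment at 0.05. DESeq2 1.42.0, other scalings, filters and pseudocounts were alternatives. The tests were tested on simulated data. R 4.3.3, Python 3.11.15, pandas 2.3.3 and numpy 2.4.6 were used.

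The members and the gene lists were chosen with earlier results of these data known. All members are named. In each list, up to 3 genes in each direction with the largest change among those past the fold are named. Nf1, Ccnd1 and the levels of Dusp1, Ier3 and Odc1 were chosen after their values were seen. Spans come from GENCODE release M39 on GRCm39 and promoter sequences from RefSeq on GRCm38.p6. Promoters on chromosome 18, which holds Spry4, were left out, and none was used for Dusp4, Etv4 or Phlda1. A floor of 3 counts was used for marker genes. One of the genes with a profile near that of Dusp6 is not reported here.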

Additional observations from a re-analysis of the deposited data

Results flagged for a closer look

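Some members lay on opposite sides of their reference in different treatments, with each counting interval excluding equality. None of these differences was tested, since each condition has 1 library. For Phlda1, the log2 fold change in BLA-A (0.88) minus that in BLU-A (-0.31) was 1.19. For Dusp5, BLA-A (0.50) minus BLU (-0.21) was 0.71. For Spred1, BLU (0.16) minus BLA-A (-0.38) was 0.54. Nanoparticle against extract also went opposite ways within the 2 berries for Etv4, at 0.30 for blackberry and -0.13 for blueberry, a difference of 0.43, and for Spry4, at 0.17 and -0.22, a difference of 0.39. With total-count scaling, the blackberry values were 0.15 for Etv4 and 0.01 for Spry4.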

How the results depend on the processing

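Under total-count scaling the number of members past the fold in BLA-A went from 1 to 0 and their median from 0.29 to 0.10. Without the filter on low counts that median was 0.39. Both alternatives rescale the BLA-A library, whose TMM factor was 0.904. Of the 40 member values, 2 changed sign under total counts, 1 under DESeq2 size factors and none under a pseudocount of 2 CPM, no filter or with the columns of 1 number left out. Leaving out replicate 1, 2 or 3 from every mean kept the counts, and the BLA-A median lay between 0.28 and 0.31. The columns of a condition were closer than sampling noise, so leaving one out could hardly move a mean and does not check replication.

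With the columns entered as separate samples and no block, edgeR called 2 members for treated against untreated, 3 for nanoparticles against extracts and 6 for blackberry against blueberry. With the replicate number as a block it called 1, 0 and 5. The number does not pair the columns, as same-numbered columns correlated at -0.0029 on average over 30 pairs, and columns within a condition were closer than sampling noise, so these p-values may measure only the spread between subsets of reads. Without the BLA-A library, treated against untreated called 34 genes and 0 members. DESeq2, the other scalings and no filter called 0 members in each comparison, as did the berry as a covariate for nanoparticles against extracts and the form as a covariate for blackberry against blueberry. Over all genes, no filter called 680 for nanoparticles against extracts and 345 for blackberry against blueberry (0 with the filter), and the covariates 5 and 7. Columns as separate samples called 3553, 7812 and 5848 genes in the 3 comparisons, and 2498, 6083 and 3987 with the block.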
